A study of Mus musculus with 6 samples.

Results

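Glutathione, cystine and oxidative stress defence genes were examined in E14 mouse embryonic stem cells after knockdown of Nat10, which encodes an RNA acetyltransferase. The set holds 42 named genes out of 31641 in the deposited count table. Its members were chosen by function: they supply cysteine, make and use glutathione, reduce peroxides or control those genes. All 42 were found by symbol and all 42 passed the filter on low counts, among 18019 genes tested. The 3 KD libraries came from cells labelled Nat10 KD and treated with Dox, and the 3 CON libraries from cells labelled Nat10 WT without Dox. Both groups are of the E14 line, and libraries were made from total RNA. Every KD sample and no CON sample had Dox, so an effect of the drug and an effect of the knockdown cannot be told apart. Whether replicates come from separate cultures is not given by the labels, and the p-values therefore measure only spread between libraries, which may be technical.

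Cells take up cystine through the SLC7A11 exchanger, or make cysteine from methionine by the transsulfuration enzymes CBS and CTH. Cysteine is joined with glutamate and glycine to form glutathione, which glutathione peroxidases use to reduce peroxides and which transferases attach to reactive compounds. Thioredoxin and the peroxiredoxins form a parallel system, and both are fed by NADPH. The transcription factor NRF2, encoded by Nfe2l2, is held in check by KEAP1 and activates many of these genes through antioxidant response elements. ATF4, the factor of the integrated stress response, is known to activate Slc7a11 and Cth through amino acid response elements.

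Promoters of the members were read from RefSeq on GRCm38.p6 as 300 bases, from 250 before to 50 after the start, and 36 of the 42 genes matched, with 48 promoters among them. The amino acid response element was searched on both strands as TGATGNAA. It stood in 1 of these 48 promoters (2.08%), that of Slc7a11, and in 3.97% of all 32851 promoters. The 6 members without a match were Cth, Gclc, Gsr, Gsta4, Hmox1 and Prdx6. Their promoters were not searched for this or any other element. The Slc7a11 promoter is shown because this gene had the largest fall, and the Gpx3 promoter because that gene had the largest rise. Slc7a11 holds the letters in both directions, starting 66 and 47 bases before the start, as marked in capitals. Gpx3 holds none of the letters searched. The Slc7a11 window lies at chr3:50443564-50443863 on the reverse strand and the Gpx3 window at chr11:54902604-54902903 on the forward strand, each written 5′ to 3′ along the gene. RefSeq starts can differ from the GENCODE gene ends given below.
Slc7a11: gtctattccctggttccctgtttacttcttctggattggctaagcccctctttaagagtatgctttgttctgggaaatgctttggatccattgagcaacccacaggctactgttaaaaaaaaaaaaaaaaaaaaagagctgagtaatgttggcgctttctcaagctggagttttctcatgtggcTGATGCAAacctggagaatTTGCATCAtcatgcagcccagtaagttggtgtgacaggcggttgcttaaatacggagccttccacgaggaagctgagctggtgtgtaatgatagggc
Gpx3: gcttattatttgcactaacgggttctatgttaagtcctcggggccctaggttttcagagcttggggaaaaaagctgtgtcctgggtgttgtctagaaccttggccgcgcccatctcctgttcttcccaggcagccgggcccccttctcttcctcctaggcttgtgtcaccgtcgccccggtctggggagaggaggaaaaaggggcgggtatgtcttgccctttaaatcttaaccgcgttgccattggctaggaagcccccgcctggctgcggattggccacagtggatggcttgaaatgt

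The antioxidant response element was searched on both strands as TGACNNNGC. It was found in 8 of the 48 member promoters (16.7%) and in 12.4% of all promoters. The 8 windows are shown because their genes went different ways: of the genes, 2 rose, 3 fell and 3 were not called. Capitals mark the element, with up to 12 bases on each side. The first pair rose (Mgst1, chr6:138140459-138140491, forward strand, and Prdx1, chr4:116685454-116685486, forward strand).
Mgst1: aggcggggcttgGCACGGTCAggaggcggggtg
Prdx1: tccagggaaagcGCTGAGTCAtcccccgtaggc
The next 3 fell (Sod1, chr16:90220694-90220726, Txnrd1, chr10:82859102-82859134, and Mt2, chr8:94172527-94172559, all on the forward strand).
Sod1: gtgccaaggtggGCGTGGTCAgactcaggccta
Txnrd1: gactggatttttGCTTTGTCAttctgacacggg
Mt2: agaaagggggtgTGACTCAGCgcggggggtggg
The last 3 were not called (Gclm, chr3:122245411-122245443, forward strand, Srxn1, chr2:152105540-152105572, forward strand, and Nfe2l2, chr2:75704883-75704913, reverse strand).
Gclm: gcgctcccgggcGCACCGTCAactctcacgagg
Srxn1: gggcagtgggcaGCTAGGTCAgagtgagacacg
Nfe2l2: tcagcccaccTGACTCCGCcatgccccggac
A match is a run of letters and no binding was measured.

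The libraries held 33770755 to 39524273 counts in KD and 35304394 to 39450202 in CON, and the 42 genes took 0.437 to 0.446% of the counts in KD and 0.49 to 0.493% in CON. Nat10 had 1100, 1164 and 1050 counts in KD, against 4960, 5496 and 4877 in CON, and was 5.44-fold lower in KD (edgeR adjusted p = 4.21e-14, with a log2 fold change of -2.44 and SE 0.054). It lies at chr2:103721256-103761270 on the reverse strand (GRCm38). The 10 embryonic stem cell markers were detected in every library, with summed levels of 2448 to 2569 CPM in KD and 6742 to 6793 CPM in CON. All 10 were called lower in KD, from 1.98-fold for Dppa5a to 4.2-fold for Zfp42. Of 8 feeder fibroblast markers 6 had a row, with sums of 51.4 to 56.8 CPM in KD and 24.0 to 28.2 CPM in CON. Of these, 3 were called higher: Col1a2 (10.8-fold, 16.6 ± 1.68 CPM in KD and 1.53 ± 0.234 CPM in CON), Pdgfrb (2.46-fold) and Col1a1 (1.77-fold). Thy1 was called lower (2-fold), and Col3a1 and Postn were below 1 CPM in every library. Neuron markers went both ways although their sum was 82.5 to 90.4 CPM in KD and 143 to 146 CPM in CON. Syp was 32.1-fold higher (29.1 ± 0.828 CPM in KD and 0.904 ± 0.0816 CPM in CON), Snap25 7.96-fold and Map2 2.77-fold higher, while Tubb3 was 6.59-fold and Stmn2 4.34-fold lower and Rbfox3 was not called. Of the 5 macrophage markers, which summed to 23.5 to 25.1 CPM in KD and 17.8 to 19.8 CPM in CON, Cd68 was called higher (1.4-fold, 22.6 ± 0.984 CPM in KD and 16.1 ± 0.8 CPM in CON). Csf1r was detected in every library and not called, Aif1 was below 1 CPM, Ptprc had 0 counts in each KD library and 4, 10 and 12 in CON, and Adgre1 had 2, 0 and 0 in KD and 0 in each CON library. Endoderm markers summed to 10.96 to 12.7 CPM in KD and 13.2 to 14.3 CPM in CON, with Foxa2 called higher (3.6-fold), Sox7 lower (13.3-fold) and 4 not called. Both calls rest on low counts. Foxa2 had 28, 19 and 22 counts in KD and 6, 4 and 6 in CON. Sox7 had 8, 6 and 2 counts in KD and 74, 60 and 50 in CON. The part of these shifts in the results below was not tested, and in bulk RNA fewer cells of a type and less RNA per cell cannot be told apart. KD-3 stood apart from KD-1 and KD-2: the chi-square per degree of freedom of their counts was 14.6 and 10.9 with KD-3 and 2.99 between KD-1 and KD-2, against 2.69 to 5.07 among CON libraries.

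Of the 42 genes, 30 passed the test, edgeR's quasi-likelihood F-test with Benjamini-Hochberg adjustment over all genes tested and a threshold of 0.05. These were 14 higher and 16 lower in KD, or 71.4% of the members against 63% of all genes tested. Among all genes 32.2% were higher and 30.8% lower, against 33.3% and 38.1% of the members. The median log2 fold change was -0.05 over the members and 0.02 over all genes. With libraries scaled by size only, the median of all genes moved by 0.23 on the log2 scale, and 23 members were then higher and 12 lower. Of all 18019 genes tested, 8280 were then higher and 3535 lower. Of the 30 called members, 26 kept their call and direction under that scaling, and 26 passed in every fit that left out 1 library. Values below are CPM, counts scaled to library size with TMM factors, given for libraries 1, 2 and 3 in order, and fold changes compare KD with CON.

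**Figure D1:**
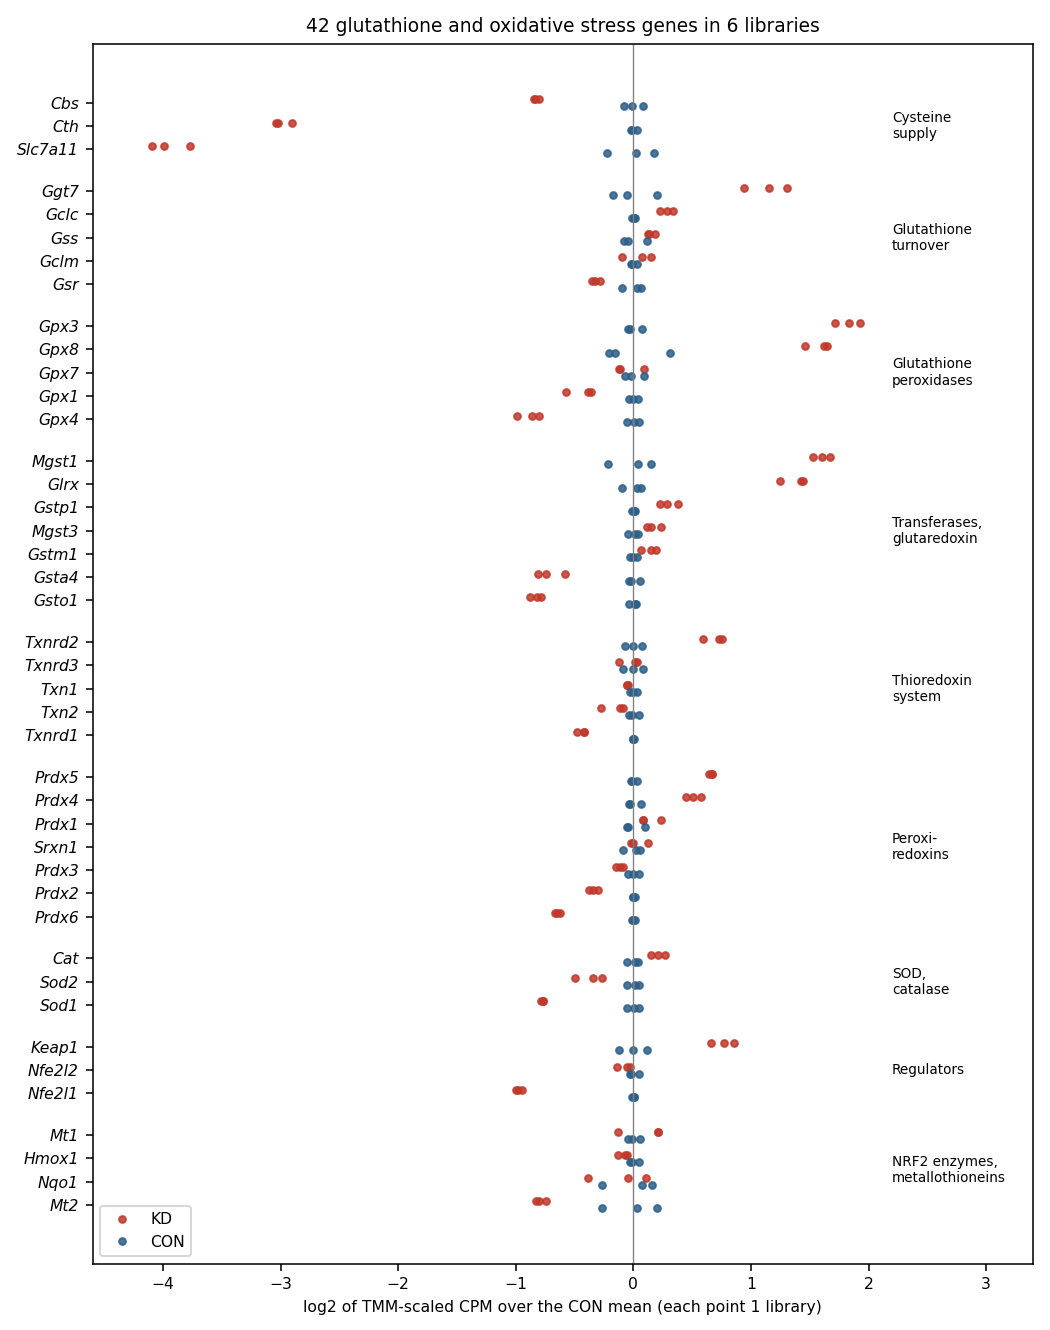
TMM-scaled CPM of each of the 42 genes in each library, as log2 over the CON mean, with KD points in red and CON points in blue and genes grouped by role. The KD points of Slc7a11 and Cth lie far left of all others, those of Gpx3, Gpx8, Mgst1 and Glrx lie furthest right, and 35 genes show no overlap between the groups.

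The 35 members without overlap were 83.3% of the set, against 67.1% of all genes tested.

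The transcripts of all 3 cysteine supply members fell. Cystine uptake, cysteine and glutathione themselves were not measured. Slc7a11, the light chain of the cystine exchanger, had 0.763, 0.888 and 0.711 CPM in KD, against 13.7, 10.4 and 12.3 CPM in CON. These values rested on 32, 38 and 26 counts in KD and on 466, 378 and 400 in CON. No KD library came near the lowest CON library, and Slc7a11 was 15.3-fold lower in KD (log2 fold change -3.93, SE 0.17, edgeR adjusted p = 2.43e-11). FPKM values, which carry no TMM factors and so are read here between genes and not between groups, give the order of levels per length. By them Slc7a11 was the lowest of the 42 genes in both groups, at 0.0612 ± 0.0071 FPKM in KD and 0.804 ± 0.111 FPKM in CON (SD, n = 3 each). The gene spans chr3:49892526-50443614 on the reverse strand, and its promoter is the one printed above with an amino acid response element in each direction.

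Cth, which splits cystathionine to release cysteine, had 37.9, 37.4 and 41.2 CPM in KD, against 314, 307 and 304 CPM in CON. The KD libraries lay close together and far below every CON library, and Cth was 7.94-fold lower in KD (log2 fold change -2.99, SE 0.051, edgeR adjusted p = 4.71e-15). Cth was the 26th most abundant member per length in KD and the 7th in CON, with 15.1 ± 0.81 FPKM in KD and 102 ± 1.96 FPKM in CON (SD, n = 3 each). It lies at chr3:157894248-157925077 on the reverse strand. Cbs, which makes the cystathionine that Cth uses, had 33.2, 32.3 and 32.5 CPM in KD, against 54.8, 61.5 and 57.5 CPM in CON. The groups did not overlap, and its fall was the smallest of the 3, at 1.78-fold (log2 fold change -0.83, SE 0.061, edgeR adjusted p = 1.35e-08).

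Slc3a2, the heavy chain that carries SLC7A11 and other amino acid transporters to the membrane, is not a member and fell less than its partner. It had 205 ± 4.19 CPM in KD and 616 ± 2.8 CPM in CON (SD, n = 3 each), 3-fold lower (edgeR adjusted p = 8.9e-14). The log2 ratio of Slc3a2 to Slc7a11 counts was 8.10, 7.85 and 8.15 in KD, against 5.49, 5.89 and 5.65 in CON. The ratio was thus higher in every KD library than in any CON library, by 2.36 on the log2 scale. An exact two-sided permutation test gave p = 0.1 (adjusted 0.12 over 6 ratios), and 0.1 is the smallest p that 3 libraries against 3 allow.

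Of 19 further genes of cystine transport, the methionine cycle and cysteine use, 3 rose, 10 fell and 6 were not called, with a median log2 fold change of -0.17. Besides Slc3a2, the falls with the smallest p were Slc1a5 and Slc1a4, neutral amino acid transporters, which fell 4.33-fold and 4.89-fold. Those that rose were Suox, Sqor and Ethe1, which oxidise sulfite or sulfide. Suox averaged 29.6 ± 0.485 CPM in KD and 15.6 ± 0.376 CPM in CON, and Sqor 3.79 ± 0.784 CPM in KD and 0.588 ± 0.149 CPM in CON (SD, n = 3 each). Under size-only scaling 6 of these genes were higher and 5 lower.

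**Figure D2:**
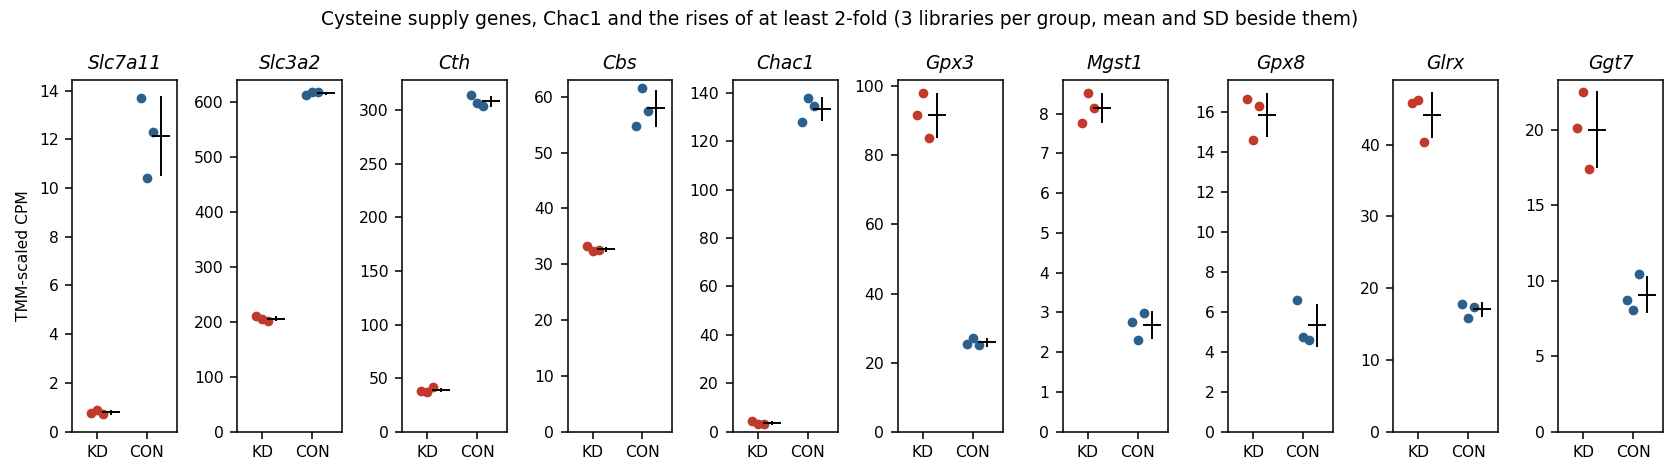
TMM-scaled CPM of the cysteine supply genes with Slc3a2 and Chac1, and of the 5 members that rose at least 2-fold, by library (points) with the mean and SD (n = 3 per group) in black. Each panel has its own axis from 0. In every panel the KD points are clear of the CON points, below them for the first 5 genes and above them for the last 5.

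Of the 5 genes of glutathione synthesis, recycling and breakdown 2 rose, 1 fell and 2 were not called. Gclc, the catalytic subunit of the first and limiting enzyme, had 65.7, 68.3 and 70.7 CPM in KD, against 56.1, 56.5 and 55.5 CPM in CON. It was higher in every KD library, by 1.22-fold (log2 fold change 0.28, SE 0.053, edgeR adjusted p = 0.000245). Gclm, the modifier subunit, had 53.8, 57.0 and 47.9 CPM in KD, against 51.0, 50.5 and 52.4 CPM in CON. The groups overlapped and it was not called (edgeR adjusted p = 0.563). Gss, which adds the glycine, had 26.5 ± 0.599 CPM in KD and 24 ± 1.75 CPM in CON (SD, n = 3 each) and was not called (edgeR adjusted p = 0.103). Both were called higher with libraries scaled by size only, at log2 fold changes of 0.28 for Gclm and 0.37 for Gss, and Gss also without CON replicate 2 (0.2). The log2 ratio of Gclm to Gclc counts was -0.29, -0.26 and -0.56 in KD, against -0.14, -0.16 and -0.08 in CON. KD-3 was lowest, and the KD minus CON difference was -0.24 with it and -0.15 without it (exact two-sided permutation p = 0.1, the smallest possible, adjusted 0.12).

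Gsr, which reduces oxidised glutathione with NADPH, had 59.6, 62.4 and 60.6 CPM in KD, against 77.7, 79.7 and 71.1 CPM in CON. It was 1.25-fold lower in KD (log2 fold change -0.32, SE 0.056, edgeR adjusted p = 0.000125), but not called with libraries scaled by size only (log2 fold change -0.09). Ggt7, of the gamma-glutamyltransferase family that breaks glutathione down, had 20.1, 22.5 and 17.4 CPM in KD, against 8.72, 8.06 and 10.4 CPM in CON. It rose 2.21-fold (log2 fold change 1.15, SE 0.11, edgeR adjusted p = 3.89e-07), with no overlap between groups although the KD libraries were spread.

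Among 38 further genes of glutathione turnover and transfer, 34 were tested, of which 17 rose, 7 fell and 10 were not called, with a median log2 fold change of 0.13. Chac1, which degrades glutathione inside the cell, had 181, 126 and 112 counts in KD, against 4365, 5015 and 4375 in CON, 38.7-fold lower in KD. Slc25a40, a mitochondrial carrier related to the glutathione importer Slc25a39, averaged 28.1 ± 2.44 CPM in KD and 94.8 ± 2.64 CPM in CON (SD, n = 3 each), 3.38-fold lower. Glrx3, a glutaredoxin of iron handling, fell 1.45-fold. The rises with the smallest p were all of transferases: Gstm5 rose 2.99-fold, Gstt3 3.63-fold and Gstm6 3.03-fold. Whether reads were shared between Gstm5, Gstm6 and other Gstm genes, Gstm1 among them, was not tested.

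The 5 glutathione peroxidase members differed, with Gpx3 and Gpx8 higher, Gpx4 and Gpx1 lower and Gpx7 not called. Gpx3, the secreted form, had 91.8, 98.0 and 84.96 CPM in KD, against 25.2, 27.2 and 25.0 CPM in CON. Every KD library was more than 3 times the level of any CON library, and the rise was 3.55-fold (log2 fold change 1.83, SE 0.066, edgeR adjusted p = 4.43e-12). Its promoter, printed above, holds no match to the elements searched. The gene lies at chr11:54902453-54910377 on the forward strand. Gpx8, a peroxidase of the endoplasmic reticulum, had 16.7, 14.6 and 16.3 CPM in KD, against 6.57, 4.76 and 4.61 CPM in CON. It rose 2.98-fold (log2 fold change 1.58, SE 0.13, edgeR adjusted p = 3.63e-08), with CON-1 the highest of the CON libraries and still well below KD. Gpx7, also of the endoplasmic reticulum, had 8.33 ± 0.715 CPM in KD and 8.62 ± 0.487 CPM in CON (SD, n = 3 each). It was not called (edgeR adjusted p = 0.7), and its sign turned with libraries scaled by size only (log2 fold change 0.18).

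Gpx4, which reduces peroxides of membrane phospholipids and protects cells from ferroptosis, had 400, 382 and 351 CPM in KD, against 670, 722 and 698 CPM in CON. It was 1.84-fold lower (log2 fold change -0.88, SE 0.05, edgeR adjusted p = 6.42e-10). Gpx1, the main cytosolic form, had 241, 237 and 209 CPM in KD, against 302, 319 and 310 CPM in CON, with KD-3 the lowest. It was 1.36-fold lower (log2 fold change -0.44, SE 0.053, edgeR adjusted p = 3.05e-06). Gpx4 stayed the most abundant member per length in both groups, at 237 ± 15.3 FPKM in KD and 373 ± 13 FPKM in CON, and lies at chr10:80047166-80056439 on the forward strand.

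Shares of the summed FPKM of this family's members do not depend on library scaling. Glutathione peroxidases outside the set are left out of the sum. Gpx4 made up 48.7 ± 0.507% in KD and 62.6 ± 0.397% in CON (SD, n = 3 each). Gpx3 made up 11.2 ± 0.507% in KD and 2.21 ± 0.0594% in CON. Gpx8 made up 3.37 ± 0.349% in KD and 0.789 ± 0.185% in CON. Gpx1 held 35.3 ± 0.545% in KD and 33.4 ± 0.126% in CON, so its share was a little higher in KD although its level was lower. None of these shares overlapped between the groups.

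**Figure D3:**
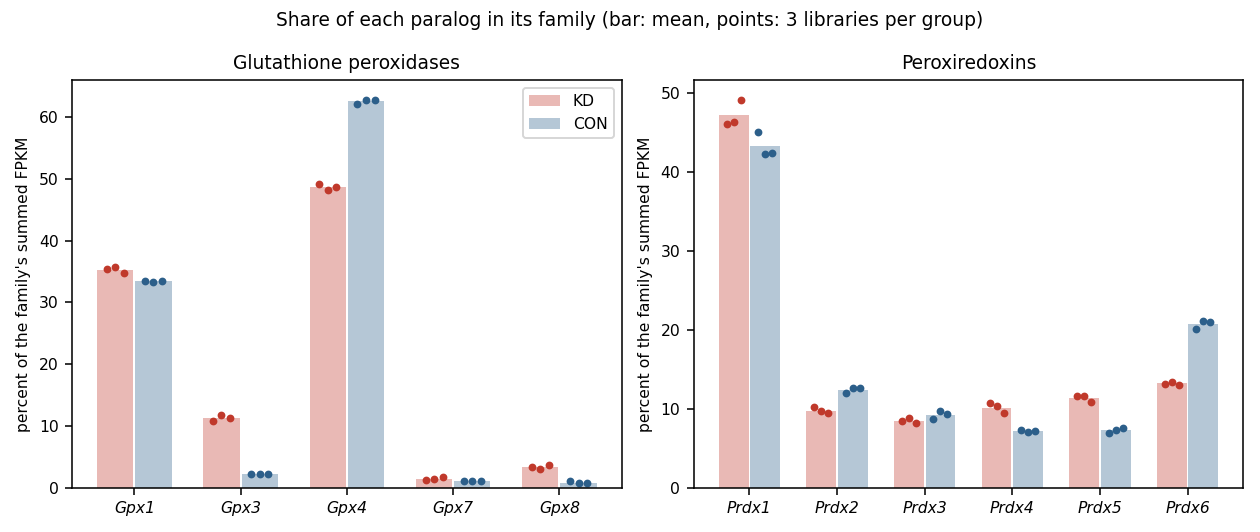
Share of each paralog in the summed FPKM of its family's members, in percent, for glutathione peroxidases and peroxiredoxins. Bars give the mean and points the 3 libraries of each group. Gpx4 and Prdx6 hold smaller shares in KD than in CON, and Gpx3, Gpx8, Prdx4 and Prdx5 larger ones.

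Of the 7 transferase and glutaredoxin members 4 rose, 2 fell and 1 was not called. Mgst1, a microsomal transferase that also reduces lipid peroxides, had 7.75, 8.53 and 8.15 CPM in KD, against 2.76, 2.31 and 2.98 CPM in CON. It rose 3.04-fold (log2 fold change 1.604, SE 0.14, edgeR adjusted p = 6.29e-08), with 325, 365 and 298 counts in KD and 94, 84 and 97 in CON. Glrx, a glutaredoxin that removes glutathione from proteins, had 45.8, 46.3 and 40.4 CPM in KD, against 17.8, 15.9 and 17.4 CPM in CON. It rose 2.59-fold (log2 fold change 1.38, SE 0.077, edgeR adjusted p = 5.66e-10), and even the lowest KD library was above all CON libraries. Gstp1, of the pi class, rose 1.23-fold (72.8 ± 3.87 CPM in KD and 59.1 ± 0.456 CPM in CON, edgeR adjusted p = 0.000204). It has close copies, Gstp2 and Gstp3, so its level is uncertain where reads were shared. Mgst3 averaged 28.8 ± 1.27 CPM in KD and 25.6 ± 0.774 CPM in CON, and its call (edgeR adjusted p = 0.0409) was lost when any library but KD-3 was left out, with edgeR adjusted p from 0.0737 to 0.18. Gstm1, of the mu class, had 42.2 ± 1.83 CPM in KD and 38.5 ± 0.734 CPM in CON and was not called (edgeR adjusted p = 0.0668), but was with libraries scaled by size only (log2 fold change 0.36).

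Gsta4 and Gsto1 were the transferases that fell. Gsta4, which conjugates aldehydes from lipid peroxidation, had 102, 96.8 and 114 CPM in KD, against 166, 168 and 176 CPM in CON, 1.63-fold lower (log2 fold change -0.71, SE 0.057, edgeR adjusted p = 3.63e-08). Gsto1, of the omega class, had 17.8, 16.8 and 17.5 CPM in KD, against 31.0, 30.0 and 31.3 CPM in CON, 1.77-fold lower (log2 fold change -0.83, SE 0.07, edgeR adjusted p = 5.75e-08). In both genes the groups were well apart.

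In the thioredoxin system the mitochondrial and cytosolic reductases went opposite ways. Txnrd2, the mitochondrial reductase, had 16.7, 16.4 and 14.9 CPM in KD, against 10.4, 9.87 and 9.41 CPM in CON, and rose 1.62-fold (log2 fold change 0.69, SE 0.092, edgeR adjusted p = 8e-06). Txnrd1, the cytosolic reductase, had 259, 249 and 259 CPM in KD, against 347, 347 and 348 CPM in CON, and fell 1.36-fold (edgeR adjusted p = 1.26e-07, log2 fold change -0.44, SE 0.04). The log2 ratio of Txnrd2 to Txnrd1 counts was -3.95, -3.92 and -4.12 in KD, against -5.05, -5.14 and -5.21 in CON. It was 1.13 higher in KD on the log2 scale, with no overlap (exact two-sided permutation p = 0.1, the smallest possible, adjusted 0.12). Txnrd3, a reductase best known from testis, had 25.2 ± 1.44 CPM in KD and 25.6 ± 1.52 CPM in CON and was not called (edgeR adjusted p = 0.806). It turned to higher, and passed, with libraries scaled by size only (log2 fold change 0.21).

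Of the thioredoxins themselves, Txn2 passed the test and Txn1 did not. Txn1, the cytosolic form and second most abundant member per length in KD, had 194, 193 and 192 CPM in KD, against 204, 196 and 199 CPM in CON, and was not called (edgeR adjusted p = 0.314). It was called higher with libraries scaled by size only (log2 fold change 0.18). Txn2, the mitochondrial form, had 116, 114 and 101 CPM in KD, against 120, 122 and 127 CPM in CON. It passed narrowly as lower (log2 fold change -0.16, SE 0.055, edgeR adjusted p = 0.0214), but was not called without CON replicate 2 or CON replicate 3 (edgeR adjusted p = 0.0548 and 0.0953) and turned to higher, not called, with libraries scaled by size only (0.07). The ratio of Txn2 to Txn1 overlapped between the groups (exact two-sided permutation p = 0.3).

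Of 22 thioredoxin partners and methionine sulfoxide reductases, 7 rose, 8 fell and 7 were not called, with a median log2 fold change of -0.04. Txnip, which binds and inhibits thioredoxin, averaged 177 ± 3.04 CPM in KD and 433 ± 7.31 CPM in CON (SD, n = 3 each), 2.45-fold lower. Sesn2, a sestrin, fell 2.11-fold while its paralog Sesn1 rose 1.63-fold. Nxn, encoding nucleoredoxin, rose 2.15-fold and the transmembrane thioredoxin Tmx4 2.25-fold, and Txndc17 fell 1.34-fold. Under size-only scaling 11 of these genes were higher and 4 lower.

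**Figure D4:**
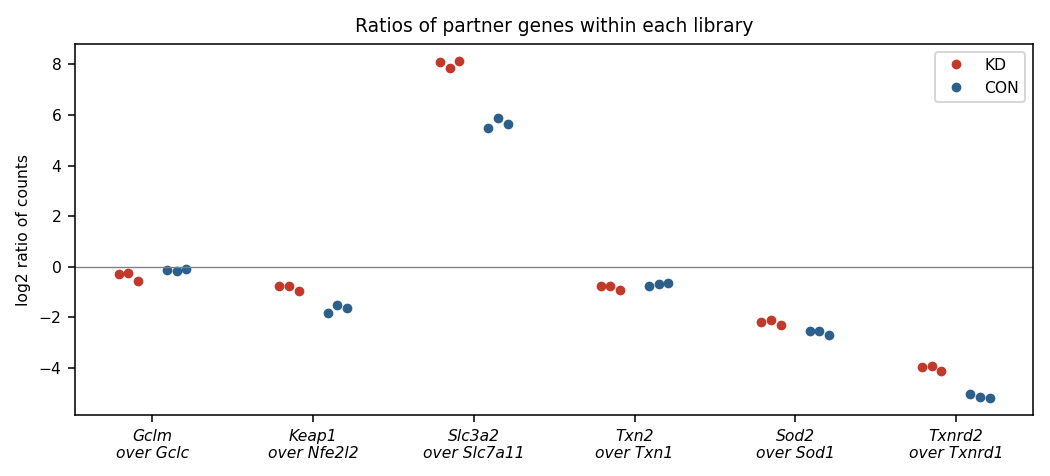
The log2 ratio of the counts of partner genes within each library, KD in red and CON in blue, for 6 pairs. The Slc3a2 over Slc7a11, Txnrd2 over Txnrd1, Keap1 over Nfe2l2 and Sod2 over Sod1 ratios are higher in every KD library than in any CON library, the Gclm over Gclc ratio is lower and the Txn2 over Txn1 ratios overlap.

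Of the 6 peroxiredoxins and sulfiredoxin, 3 rose, 2 fell and 2 were not called. Prdx5, found in mitochondria, peroxisomes and cytosol, had 86.6, 86.9 and 85.3 CPM in KD, against 54.0, 54.1 and 55.8 CPM in CON, and rose 1.58-fold (log2 fold change 0.66, SE 0.05, edgeR adjusted p = 1.69e-08). Prdx5 shares 409 exonic bases with Trmt112 on the opposite strand, so part of its counts may belong to that gene. Prdx4, the form of the endoplasmic reticulum, had 79.1, 75.6 and 72.5 CPM in KD, against 55.8, 52.2 and 51.8 CPM in CON, and rose 1.42-fold (log2 fold change 0.51, SE 0.056, edgeR adjusted p = 1.23e-06). Both genes were clear of overlap.

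Prdx6, which reduces phospholipid peroxides with glutathione, had 222, 225 and 229 CPM in KD, against 352, 354 and 349 CPM in CON. It was 1.56-fold lower (log2 fold change -0.64, SE 0.04, edgeR adjusted p = 1.73e-09). Prdx2, a cytosolic form, had 109, 103 and 105 CPM in KD, against 133, 134 and 133 CPM in CON, 1.26-fold lower (log2 fold change -0.34, SE 0.045, edgeR adjusted p = 8.92e-06). Prdx1, the most abundant form per length, had 492, 492 and 547 CPM in KD, against 499, 450 and 446 CPM in CON. The groups overlapped because CON-1 was above KD-1 and KD-2, and its call (log2 fold change 0.13, edgeR adjusted p = 0.038) was lost without KD replicate 3, CON replicate 2 or CON replicate 3 (edgeR adjusted p = 0.0749, 0.169 and 0.189). Prdx3, the mitochondrial form, had 44.4 ± 0.965 CPM in KD and 48.2 ± 1.65 CPM in CON and was not called (edgeR adjusted p = 0.0854). Srxn1, which repairs overoxidised peroxiredoxins and is a well known NRF2 target, had 20.9 ± 1.2 CPM in KD and 20.4 ± 1.05 CPM in CON and was not called (edgeR adjusted p = 0.702). With libraries scaled by size only, Srxn1 was called higher.

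Within the family's summed FPKM, Prdx6 made up 13.2 ± 0.196% in KD and 20.7 ± 0.549% in CON (SD, n = 3 each). Prdx5 made up 11.4 ± 0.402% in KD and 7.24 ± 0.304% in CON, and Prdx4 10.1 ± 0.667% in KD and 7.15 ± 0.104% in CON. Prdx1 held 47.1 ± 1.7% in KD and 43.2 ± 1.55% in CON, and its shares did not overlap.

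Of the superoxide dismutases and catalase 2 fell and 1 rose. Sod1, the cytosolic copper and zinc enzyme, had 335, 335 and 330 CPM in KD, against 548, 571 and 589 CPM in CON, 1.71-fold lower (log2 fold change -0.77, SE 0.041, edgeR adjusted p = 2.97e-10). Sod2, the mitochondrial manganese enzyme, had 74.0, 78.0 and 66.5 CPM in KD, against 94.5, 96.8 and 90.2 CPM in CON. It was 1.29-fold lower (log2 fold change -0.36, SE 0.06, edgeR adjusted p = 7.65e-05), a call lost with libraries scaled by size only (log2 fold change -0.14, edgeR adjusted p = 0.0599). The log2 ratio of Sod2 to Sod1 counts was -2.18, -2.10 and -2.31 in KD, against -2.54, -2.56 and -2.71 in CON, so Sod1 was the more reduced of the pair in every KD library (exact two-sided permutation p = 0.1, the smallest possible, adjusted 0.12). Cat, the peroxisomal catalase, had 74.1, 77.1 and 80.4 CPM in KD, against 67.2, 68.5 and 64.2 CPM in CON, and rose 1.16-fold (log2 fold change 0.21, SE 0.054, edgeR adjusted p = 0.00289).

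Of the 3 regulators 1 rose, 1 fell and 1 was not called. Keap1, the adaptor that sends NRF2 for degradation, had 46.4, 43.8 and 40.5 CPM in KD, against 23.5, 27.7 and 25.6 CPM in CON, and rose 1.7-fold (log2 fold change 0.77, SE 0.076, edgeR adjusted p = 3.27e-07). It lies at chr9:21229730-21239361 on the reverse strand and shares 510 exonic bases with the antisense gene Gm16754. Nfe2l2, which encodes NRF2, had 77.8, 73.6 and 79.3 CPM in KD, against 83.8, 79.9 and 79.4 CPM in CON. The groups were adjacent without overlap and it was not called (edgeR adjusted p = 0.219), and with libraries scaled by size only it was called higher (log2 fold change 0.15). The log2 ratio of Keap1 to Nfe2l2 counts was -0.75, -0.75 and -0.97 in KD, against -1.83, -1.53 and -1.63 in CON. It was higher by 0.84 in KD (exact two-sided permutation p = 0.1, the smallest possible, adjusted 0.12). Nfe2l1, which encodes the related factor NRF1, known for its control of proteasome genes, had 204, 211 and 207 CPM in KD, against 408, 404 and 410 CPM in CON. It was 1.97-fold lower (log2 fold change -0.98, SE 0.04, edgeR adjusted p = 1.59e-11), with tight groups far apart.

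Hmox1 and Nqo1, common target genes of NRF2, were not called. Hmox1, which degrades heme, had 119, 118 and 113 CPM in KD, against 121, 127 and 122 CPM in CON (edgeR adjusted p = 0.129), and was called higher with libraries scaled by size only (log2 fold change 0.14). Nqo1, a quinone reductase, had 6.66, 8.43 and 9.35 CPM in KD, against 9.16, 9.73 and 7.22 CPM in CON, with overlapping groups (edgeR adjusted p = 0.553). Its log2 fold change was -0.10 with SE 0.14. Of 28 further NRF2 partners and targets 14 rose, 12 fell and 2 were not called, with a median log2 fold change of 0.02. Mafk, a small MAF partner of NRF2, rose 1.98-fold while its paralog Maff fell 1.49-fold. Aox1, encoding aldehyde oxidase, rose 3.44-fold and the pentose phosphate enzyme Pgd, which makes NADPH, rose 1.48-fold. Ftl1, the ferritin light chain, fell 1.77-fold and the efflux transporter Abcc4 1.68-fold. With libraries scaled by size only, 4 of this list fell.

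Metallothioneins, which bind zinc and copper, are induced through metal response elements, searched here on both strands as TGCACNC or TGCGCNC. These letters stood in 13 of the 48 member promoters (27.1%) and in 25.7% of all promoters. Mt2 has more of these matches in its promoter than Mt1, but its promoter is not printed. The Mt1 promoter is shown because it is the main expressed metallothionein and holds 3 of them, in capitals, in its last 100 bases (chr8:94179039-94179138, forward strand).
Mt1: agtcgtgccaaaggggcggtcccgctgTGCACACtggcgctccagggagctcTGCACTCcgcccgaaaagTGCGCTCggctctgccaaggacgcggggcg
Mt1 had 151, 152 and 120 CPM in KD, against 137, 130 and 127 CPM in CON, with KD-3 below every CON library. It was not called (log2 fold change 0.11, SE 0.074, edgeR adjusted p = 0.228), but was called higher without KD replicate 3 (log2 fold change 0.20, edgeR adjusted p = 4.41e-05) and with libraries scaled by size only (0.33). Mt2 had 39, 38 and 32 counts in KD, against 54, 47 and 58 in CON, or 0.93, 0.888 and 0.875 CPM in KD and 1.58, 1.29 and 1.78 CPM in CON. It was 1.72-fold lower (edgeR adjusted p = 0.0126, log2 fold change -0.79, SE 0.25). The call was lost without CON replicate 3 (edgeR adjusted p = 0.053) and with libraries scaled by size only (edgeR adjusted p = 0.0624), and 73.5% of its exonic bases are shared with the antisense gene Gm45774. Of 10 further metal response genes 9 were tested, of which 4 rose, 2 fell and 3 were not called, with a median log2 fold change of 0.02. Mt3 rose 2.09-fold, with 134, 174 and 127 counts in KD and 68, 48 and 60 in CON, the copper pump Atp7a rose 1.86-fold and the copper chaperone Atox1 1.53-fold. The zinc and iron importer Slc39a14 fell 2.33-fold. The copper importer Slc31a1 fell 1.14-fold but turned to higher, not called, with libraries scaled by size only (log2 fold change 0.04). With that scaling 7 of this list rose and 1 fell.

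Grouped across families, after their values were seen, the 6 members that carry selenocysteine in the mouse (Gpx1, Gpx3, Gpx4 and the 3 thioredoxin reductases) had 2 higher, 3 lower and 1 not called. Of 21 other selenoprotein and selenocysteine machinery genes 9 rose, 6 fell and 6 were not called, with a median log2 fold change of 0.08. Among the selenoproteins Selenon rose 2.71-fold, Selenop 3.57-fold and Selenok 1.85-fold. The falls with the smallest p were in the machinery: Sephs1 and Sephs2, of the selenophosphate synthetase family, fell 1.51-fold and 1.47-fold, and Secisbp2, which binds the selenocysteine signal in mRNA, fell 1.55-fold. Under size-only scaling 14 of these genes were higher and 3 lower. Among the glutathione peroxidase and peroxiredoxin members, 4 are secreted or forms of the endoplasmic reticulum. Of these, also grouped after their values were seen, Gpx3, Gpx8 and Prdx4 rose and Gpx7 was not called.

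Of 19 ferroptosis and iron genes 7 rose, 7 fell and 5 were not called, with a median log2 fold change of -0.02. Slc40a1, the iron exporter ferroportin, averaged 38.7 ± 2.54 CPM in KD and 6.92 ± 0.423 CPM in CON (SD, n = 3 each), a 5.59-fold rise (edgeR adjusted p = 2.64e-12). Alox5, a lipoxygenase, rose 3.35-fold and Fdft1, of sterol synthesis, 1.78-fold. Gch1 and Dhodh, which act in tetrahydrobiopterin and pyrimidine synthesis, fell 1.96-fold and 1.53-fold. Chac1, described above, is on this list too. With libraries scaled by size only, 11 of this list rose. Of 12 NADPH oxidase genes 7 were tested, of which 6 rose, and the median log2 fold change was 1.18. In the fits that left out 1 library, 4 to 6 of this list were called higher. Nox4 averaged 12.5 ± 1.06 CPM in KD and 5.52 ± 0.399 CPM in CON, a 2.27-fold rise. Duox1 averaged 5.28 ± 0.48 CPM in KD and 2.06 ± 0.306 CPM in CON, and Duox2 1.58 ± 0.152 CPM in KD and 0.644 ± 0.191 CPM in CON, rises of 2.56-fold and 2.43-fold. Over these 8 lists together, without double entries, 67 of 156 tested genes rose and 52 fell. Of all 18019 genes tested, 5801 rose (32.2%) and 5543 fell (30.8%). Scaling by library size alone gave 90 that rose and 28 that fell on the lists, and 8280 and 3535 among all genes tested.

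**Figure D5:**
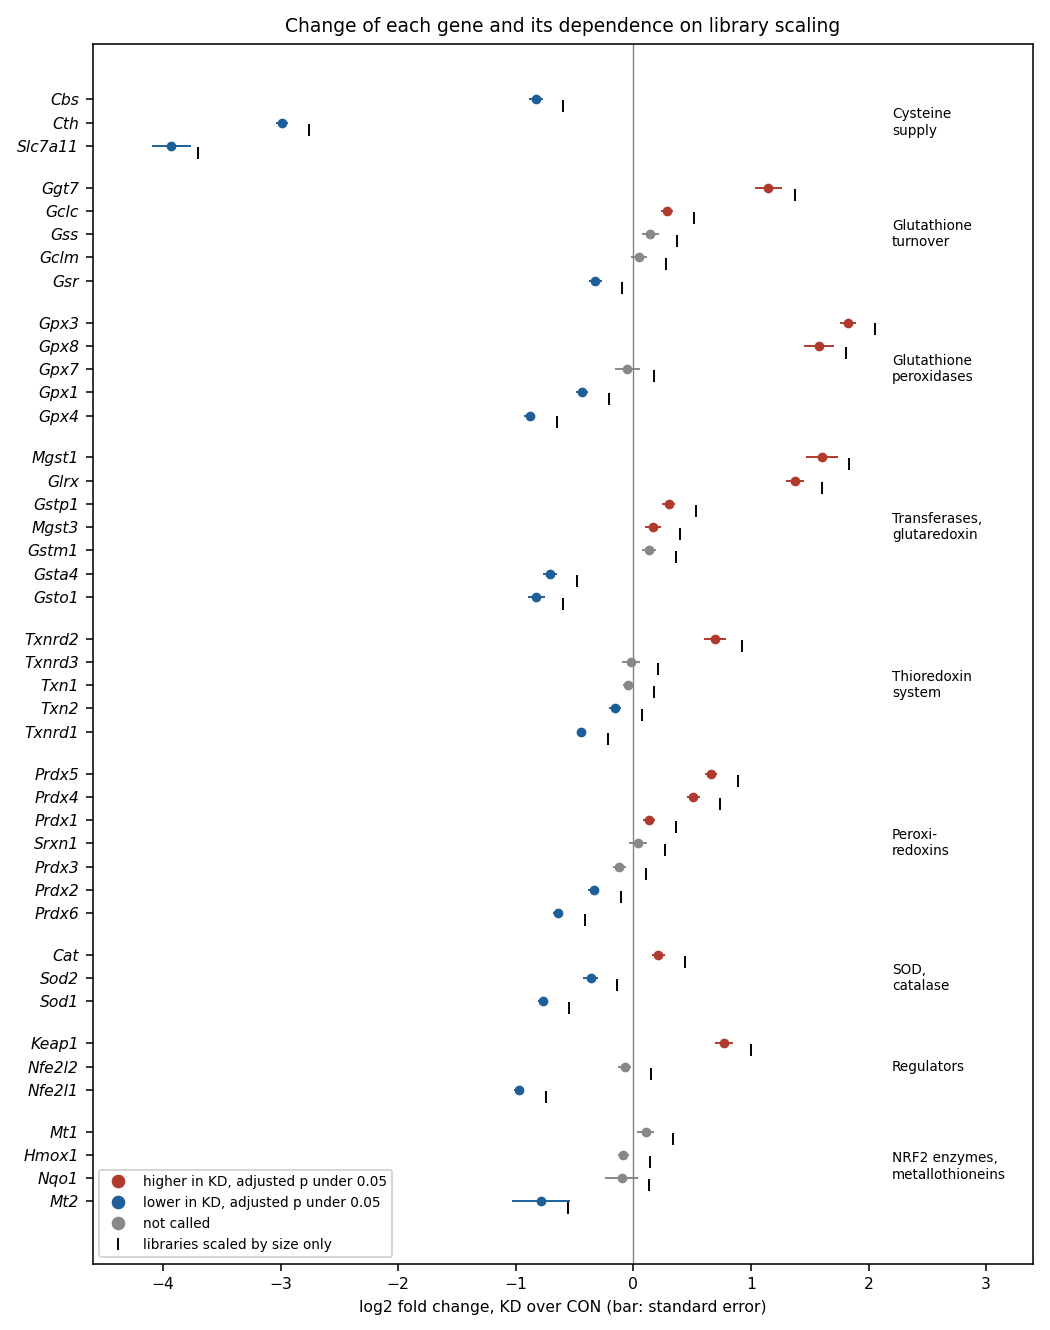
The log2 fold change of each of the 42 genes, KD over CON, with its standard error (points and bars, n = 3 libraries per group) and the same value with libraries scaled by size only (black ticks). The ticks lie about 0.23 to the right throughout, which carries several grey points and the blue point of Txn2 across 0. The falls of Slc7a11, Cth, Nfe2l1 and Gpx4 and the rises of Gpx3, Mgst1, Gpx8, Glrx and Ggt7 stay on their side.

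In the authors' deposited table, whose log2 fold change runs CON over KD, all 42 members had the same direction once its sign was turned, and 27 of them had an adjusted p under 0.05.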

How the data were processed

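Per the submitters' processing notes, FastQC 0.11.9, STAR 2.5.3a, featureCounts and the build mm10 were used. Annotation release, strandedness and the treatment of reads with several alignments: not given in the sources used here. Raw counts per gene from the authors stand in the deposited table, with FPKM values, a measure per gene length and library total deposited by the authors, used here only for levels between genes and shares within families. FPKM carries no TMM factors, so its values are not compared between groups. The table also holds the authors' log2 fold change and adjusted p-value, from a test that is not named. Columns were matched to samples by treatment and number, with none left over.

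Between 70 and 71.7% of deposited counts from 1 to 20 were even in every library, and the cause was not tested. A count was worth 0.0234 to 0.0307 CPM.

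The tests were run with edgeR 4.0.16 under R 4.3.3: filterByExpr, TMM scaling (factors 1.08 to 1.084 in KD and 0.922 to 0.926 in CON), the robust quasi-likelihood F-test on 3 against 3 libraries and Benjamini-Hochberg adjustment over 18019 genes at 0.05. The SE is the log2 fold change over the square root of F. On simulated data, 160 of 200 genes changed 2-fold were recovered, with 12 unchanged genes called among 17707. The simulation changed few genes, as many up as down, unlike the data, where most genes were called. It therefore cannot test the choice of library scaling. Ratios used exact permutation tests. Alternatives were scaling by library size only, DESeq2 1.42.0, no filter, at least 1 CPM in 3 libraries, counts divided by 2, a replicate block and leaving out each library.

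The members and lists were chosen with earlier results of these data known. All members are described. Of each other list, up to 3 genes per direction with the smallest p and a mean of at least 1 CPM are named, and the single markers and Slc25a39 were added later. A gene that this rule also names is not reported here. Positions are from GENCODE M21 and promoters from RefSeq (GRCm38.p6). Since strandedness is not stated, 8 members that overlap a gene on the opposite strand cannot be told apart from it in the counts: Gclm, Ggt7, Gss, Keap1, Mt2, Prdx2, Prdx5 and Txnrd2. Gpx4 and Prdx6 each have a named pseudogene, whose reads may be shared with them.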

Additional observations from a re-analysis of the deposited data

How the results depend on the processing

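Of 504 member values under the alternatives, 464 kept their direction and side of the threshold. Scaling by library size only had the widest effect: all genes had 8280 higher and 3535 lower calls, members 23 higher and the other lists 28 lower. It turned the log2 fold changes of Gpx7 (0.18), Txn1 (0.18), Txn2 (0.072), Txnrd3 (0.21), Prdx3 (0.11), Nqo1 (0.13), Hmox1 (0.14), Nfe2l2 (0.15) and Slc31a1 (0.042). Leaving out 1 library turned 4 genes that were not called, with ranges over these fits of -0.018 to 0.107 for Gclm, -0.068 to 0.017 for Txnrd3, -0.018 to 0.063 for Srxn1 and -0.222 to 0.020 for Nqo1. The cause was not tested. In the fits that left out 1 library, 12 to 14 members were higher and 14 to 16 lower.

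Same-numbered libraries had deviations correlated at -0.061, 0.015 and -0.039, and no library correlated best with its own number. Correlations over all pairings ran only from -0.061 to 0.084. They are too small to decide whether equal numbers mark a shared culture or day, which the labels do not give. With the replicate block 12 members were higher and 16 lower, without the calls of Prdx1 and Mgst3, which DESeq2 also did not make (adjusted p = 0.0633 and 0.105). Neither dividing counts by 2 nor the filter at 1 CPM changed a member's call. Depth limits Slc7a11 in KD, at 26 to 38 counts a library, and Mt2, at 32 to 58.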
